A study of Mus musculus with 16 samples.

Results

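The transcription factors that guide the development of natural killer (NK) cells were examined in lung mRNA of mice that overexpress Fra-2 and of their wild-type (WT) littermates. Fra-2, encoded by Fosl2, is a member of the AP-1 family of leucine zipper factors. The set was chosen by gene symbol and holds 10 genes, namely Nfil3, Ets1, Tcf7, Id2, Tox, Gata3, Eomes, Tbx21, Zeb2 and Runx3. The array carries 29 features (probe spots) for these genes out of 43941 features with a single gene symbol and 62976 in all, and every one of the 29 is described. Each gene's features are numbered by brightness, so that feature 1 has the highest mean signal over all mice.

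The arrays were hybridised with RNA from the snap-frozen right lung of 16 mice aged 8 weeks, with 4 females and 4 males of each genotype, WT or Fra-2 TG. The TG mice carry an ectopically expressed Fra-2 transgene together with a GFP reporter in their cells. The line was bred heterozygously from a mixed BL6CBA background backcrossed to C57BL6/J, under SPF conditions with a daily light and dark cycle, and no group received a treatment. The promoter that drives the transgene is not given in the sources used here. Values are log2 intensities that had been background-corrected and quantile normalised, so 1 unit is a doubling of signal. The RNA is that of the whole lung, in which fewer cells of a type and less RNA per cell cannot be told apart.

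NK cells arise from lymphoid progenitors in the bone marrow in a fixed order. Early in the series NFIL3, ETS1, TCF-1 (encoded by Tcf7), ID2 and TOX commit progenitors to the innate lymphoid and NK lineages, ID2 by holding E proteins away from DNA. Later T-bet (encoded by Tbx21), EOMES and ZEB2 drive maturation, cytotoxicity and exit to the tissues. GATA3 and RUNX3 act at several stages, and GATA3 is also the defining factor of type 2 helper T cells and type 2 innate lymphoid cells (ILC2). None of the 10 is particular to NK cells, since T cells, endothelial cells, fibroblasts or epithelial cells use several of them.

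The promoters of 3 members are shown because both features of Nfil3 and that of Tbx21 were lower and the brightest of Zeb2 higher in TG lungs, and because AP-1 factors such as Fra-2 bind TGACTCA, which reads TGAGTCA on the other strand. The windows come from RefSeq on GRCm38.p6 and run from 250 bases before to 50 bases after a transcription start. Of the 10 members 8 had a window, 13 windows in all, and Ets1 and Tox had none in the table. The Nfil3 window is chr13:52980990-52981289 and the Tbx21 window is chr11:97115282-97115581, both on the minus strand, with capitals marking the GC box GGGCGG or its complement CCGCCC. The Zeb2 window is chr2:45110228-45110527, also on the minus strand and 1 of 4 for this gene, with capitals marking the AP-1 motif.
Nfil3: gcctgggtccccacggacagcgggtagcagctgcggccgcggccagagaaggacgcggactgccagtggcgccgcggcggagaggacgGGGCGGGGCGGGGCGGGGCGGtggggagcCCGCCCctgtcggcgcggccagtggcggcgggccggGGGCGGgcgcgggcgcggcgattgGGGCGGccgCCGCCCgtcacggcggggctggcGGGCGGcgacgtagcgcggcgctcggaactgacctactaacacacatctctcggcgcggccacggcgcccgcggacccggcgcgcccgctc
Tbx21: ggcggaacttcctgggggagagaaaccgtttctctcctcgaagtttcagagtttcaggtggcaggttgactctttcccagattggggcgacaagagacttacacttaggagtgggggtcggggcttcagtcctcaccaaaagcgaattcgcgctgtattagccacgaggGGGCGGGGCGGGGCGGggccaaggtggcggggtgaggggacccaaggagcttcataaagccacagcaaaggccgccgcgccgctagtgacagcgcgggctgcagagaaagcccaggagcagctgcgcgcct
Zeb2: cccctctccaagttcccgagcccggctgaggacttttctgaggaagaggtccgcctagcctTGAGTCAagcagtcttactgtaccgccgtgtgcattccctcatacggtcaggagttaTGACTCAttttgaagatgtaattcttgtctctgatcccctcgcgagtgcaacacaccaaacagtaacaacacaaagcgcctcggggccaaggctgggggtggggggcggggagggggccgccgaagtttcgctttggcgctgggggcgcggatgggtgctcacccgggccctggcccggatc

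The AP-1 motif was present in 1 of the 13 member windows, that of Zeb2 printed above, where TGAGTCA began 189 bases and TGACTCA 132 bases before the start. Among all 32851 promoter windows 5.2% held the motif. The Nfil3 window was rich in G and C (81.7%, against a median of 52.7% over all windows) and held 9 overlapping or separate GC boxes, and the Tbx21 window held 3. GC boxes were found in 10 of the 13 member windows and in 35.7% of all windows. Neither the cyclic AMP element TGACGTCA (1.79% of all windows) nor the D-box TTANGTAA, the element bound by NFIL3 itself (2.32% of all windows, searched on both strands), occurred in any member window. These are matches of letters and do not show binding, and sites outside the windows were not searched.

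Before the comparisons, the arrays were checked against each other and against their labels. Every pair of arrays correlated at 0.954 or more. Replicates 1 and 4 of the TG females and the first replicate of the WT males stood apart, with median correlations to the other arrays of 0.965 to 0.976, against 0.977 to 0.984 for the other 13, so results are also given without them where that matters. Fosl2 feature 2, a dim spot in WT lungs, read 2.39 to 4.91 there against 6.56 to 10.7 in the TG group, and was higher by 4.77 ± 0.45 (SE, adjusted p = 2.12e-05, limma), whereas the bright Fosl2 feature 1 differed by -0.14 ± 0.22 (adjusted p = 0.731). The labelled genotypes were thus separated by the first of these spots without overlap. Several epithelial genes of the lung were near the top of the scale in both genotypes. The club cell secretoglobin Scgb1a1 read 15.88 or more and the surfactant gene Sftpc 15.86 or more in all 16 mice.

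Of the 29 features, 5 were lower and 3 were higher in TG than in WT lungs (limma with Benjamini-Hochberg adjustment over 43941 features, adjusted p under 0.05). This is 17.2% lower and 10.3% higher, beside 5.45% of all features lower and 5.86% higher. The lower features were both features of Nfil3, the single feature of Tbx21, and feature 1 of Id2 and of Runx3. The higher features were feature 1 of Zeb2 and feature 2 of Ets1 and of Tcf7. Features of the same gene share a target and are not independent. Over all 43941 features the counts were 2393 lower and 2574 higher. Without the 3 arrays that stood apart the member counts were 4 lower and 4 higher, beside 2257 and 2374 of all features. Without TG female replicates 1 and 4 alone they were 3 and 3, beside 894 and 1296 of all features. Leaving out TG male replicate 1 alone left 2 member features lower, beside 1498 of all features. Leaving out WT female replicate 1 or 2 left 3, beside 1533 and 1602. Calls thus also fell over the whole array.

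**Figure D1:**
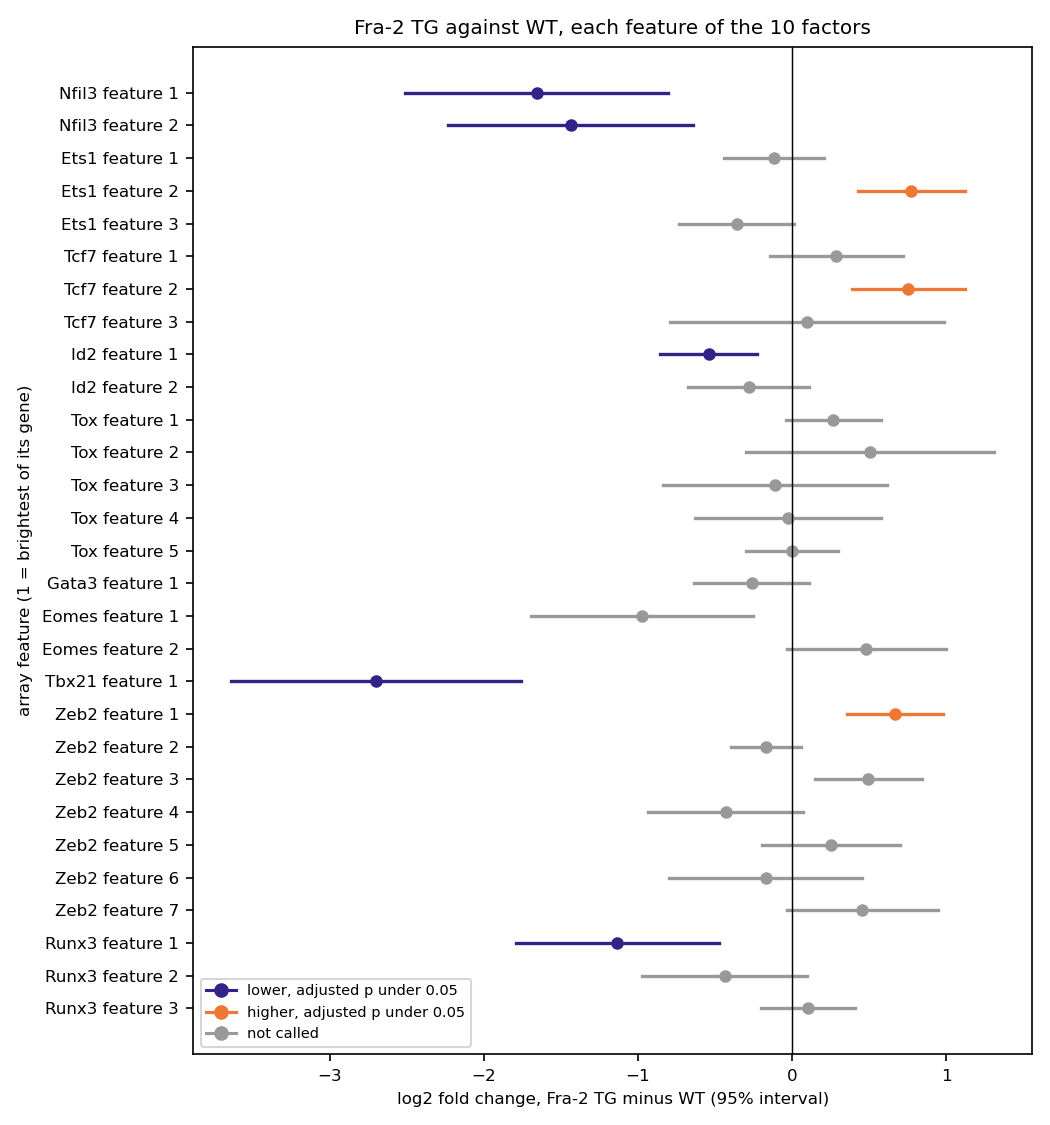
Log2 fold change (TG minus WT) with its 95% interval for each of the 29 features, in 8 TG and 8 WT mice, coloured by call. Tbx21 lies farthest to the left at -2.70 and both Nfil3 features lie near -1.5. For Ets1, Tox, Eomes, Zeb2 and Runx3, features of the same gene fall on both sides of 0.

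Tbx21 encodes T-bet, the T-box factor required for NK maturation and for type 1 immunity. It had a single feature, which read 5.30 to 7.35 (median 6.47) among WT and 2.33 to 5.51 (median 3.73) among TG mice. Of the 8 TG mice 7 lay below every WT mouse, and the only overlap was TG female replicate 2 at 5.51 above WT female replicate 3 at 5.30. The fold change was -2.70 ± 0.44 (SE, n = 8 and 8, adjusted p = 0.00182, limma). Background flags were not used here, but the Y-linked gene Uty, which females lack, read 2.66 to 4.09 in the 8 females. TG values of Tbx21 reached down into that range and below it, so the size of its difference is uncertain. It fell by 2.50 ± 0.62 in females (adjusted p = 0.0172), and in males the difference was -2.89 ± 0.62, short of the threshold (adjusted p = 0.0606). Fitted on each sex alone the verdicts were exchanged, with adjusted p = 0.0604 in females and 0.034 in males. Without the 3 arrays that stood apart the difference was -2.03 (adjusted p = 0.00759).

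Nfil3 encodes a basic leucine zipper repressor that progenitors need to enter the NK and innate lymphoid lineages and that also takes part in the circadian clock. Feature 1 read 7.39 to 9.57 (median 8.38) in the WT group and 5.95 to 8.62 (median 6.42) in the TG group. Feature 2 gave nearly the same picture, 7.39 to 9.44 (median 8.15) in WT and 5.83 to 8.64 (median 6.63) in TG mice, and the features of a mouse differed by 0.13 in the median. The fold changes were -1.66 ± 0.40 (adjusted p = 0.0166) and -1.44 ± 0.37 (adjusted p = 0.0234, limma), or 3.16-fold and 2.71-fold lower. TG male replicate 3, at 8.62 and 8.64, stood above the WT median, whereas the other 7 TG mice were at or below 7.57 in feature 1. Without that mouse the difference in feature 1 was -1.95 ± 0.33 (adjusted p = 0.0037). The exact Wilcoxon test, which uses ranks only, did not call either feature (adjusted p = 0.0704 and 0.0565). Feature 2 also lost its call without WT male replicate 2 (adjusted p = 0.0509) and without TG male replicate 1 (adjusted p = 0.0502), as it did without TG female replicates 1 and 4 (adjusted p = 0.0663).

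Id2 encodes an inhibitor of E proteins that marks the common innate lymphoid progenitor. Feature 1 lay between 10.7 and 11.6 (median 11.1) in the WT group, and between 9.83 and 10.8 (median 10.5) in the TG group, where 5 of 8 mice were below all WT mice. It fell by 0.54 ± 0.15 (adjusted p = 0.0297), a 1.46-fold difference. Feature 2 differed by -0.28 ± 0.18 (adjusted p = 0.358), with 7.64 to 8.66 in WT and 7.47 to 8.58 in TG mice. The call for feature 1 was among the least stable, since it was lost without the 3 arrays that stood apart (adjusted p = 0.105) and on leaving out any of 7 single mice (WT female replicates 1, 2 and 4, WT male replicate 3, TG female replicate 1 and TG male replicates 1 and 3), with adjusted p of 0.0509 to 0.0654 and differences of -0.55 to -0.46.

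Runx3, which encodes a Runt factor of cytotoxic lymphocytes, was lower by its brightest feature alone. That spot read 5.86 to 7.29 (median 6.39) in WT lungs, against 3.54 to 5.94 (median 5.84) in TG lungs. Of the TG mice 6 were packed between 5.66 and 5.94, around the lowest WT value, and TG female replicates 1 and 4 were at 4.54 and 3.54. The difference was -1.13 ± 0.31 (adjusted p = 0.0294), and without these 2 mice it was -0.68 (adjusted p = 0.0933). Leaving out any 1 of WT female replicates 1 and 2, WT male replicate 4, TG female replicate 1 and TG male replicates 1 and 2 also ended the call, with adjusted p of 0.0507 to 0.0629. Features 2 and 3 differed by -0.44 ± 0.25 (adjusted p = 0.286) and 0.10 ± 0.14 (adjusted p = 0.706).

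**Figure D2:**
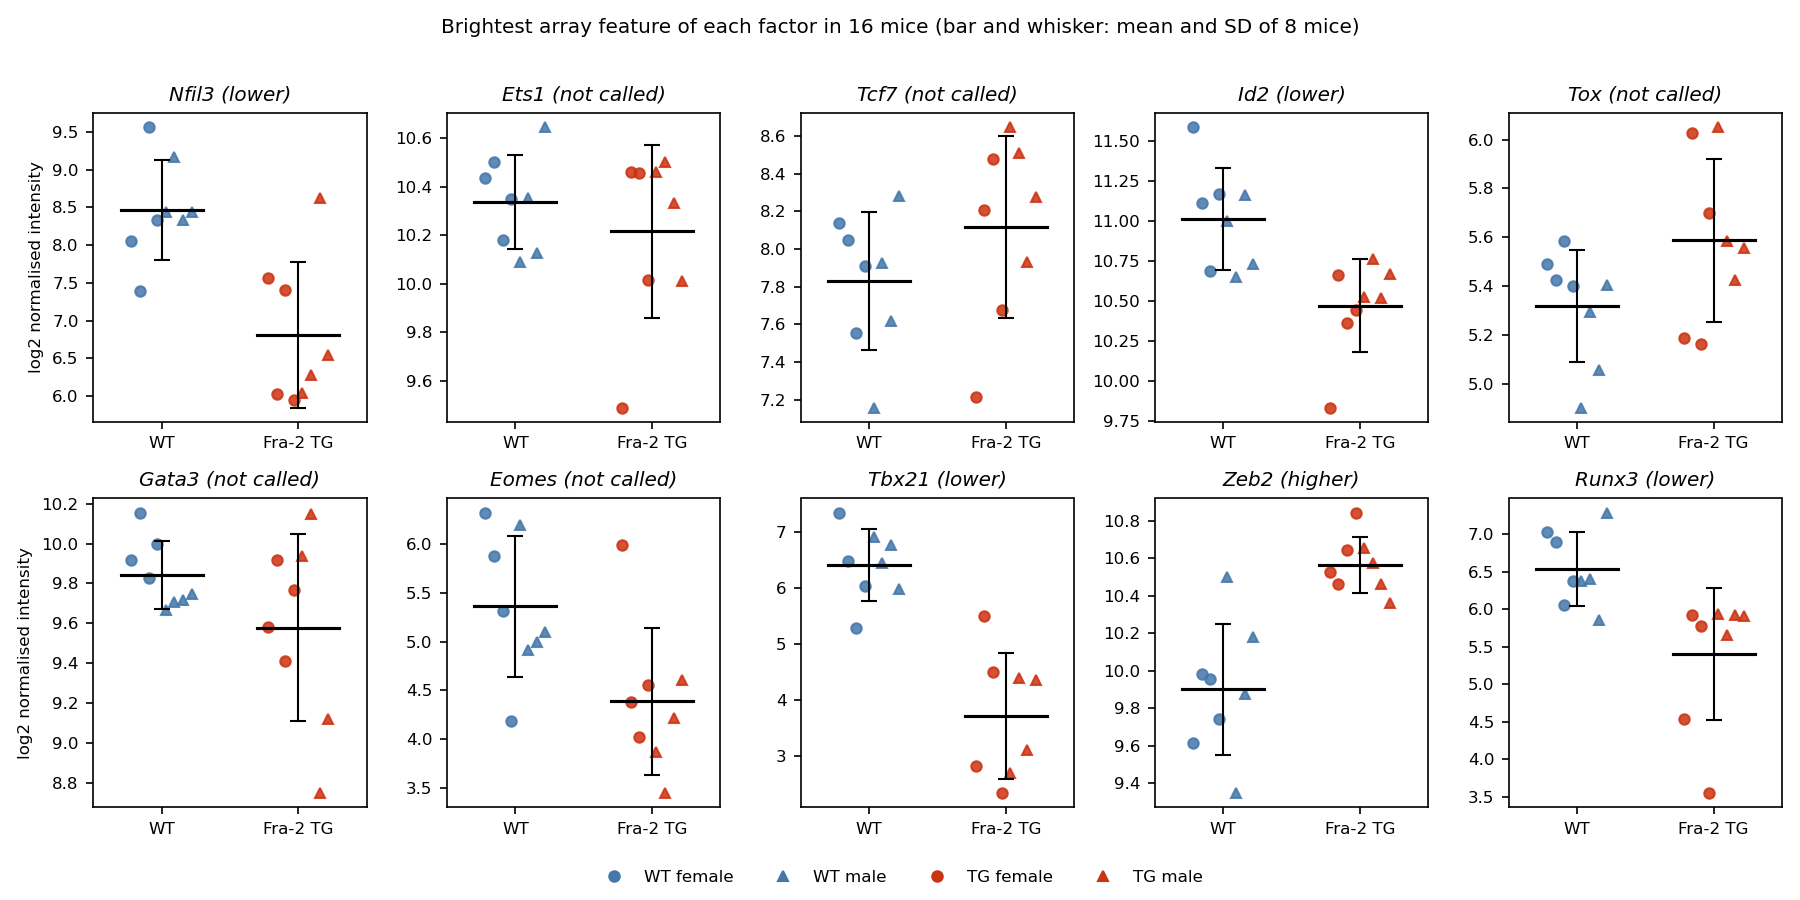
Log2 normalised intensity of the brightest feature of each of the 10 factors in 16 mice, each panel with its own axis, circles for females and triangles for males, with the mean and SD of 8 mice. The TG points lie mostly below the WT points for Nfil3, Id2, Tbx21 and Runx3 and above them for Zeb2, and for each of the 10 genes at least 1 TG mouse lies within the WT range.

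Zeb2 encodes a zinc finger repressor that acts with T-bet in terminal NK maturation and is also used by myeloid, endothelial and mesenchymal cells. Feature 1 was the opposite of Tbx21, at 9.35 to 10.5 (median 9.92) in WT and 10.4 to 10.8 (median 10.6) in TG mice. It was higher by 0.67 ± 0.15 (adjusted p = 0.0103), a 1.59-fold difference, and 5 of 8 TG mice were above all WT mice. The next brightest spot of the gene did not follow, since feature 2 stood at 9.53 to 10.3 in WT and 9.34 to 9.84 in TG mice, with a difference of -0.17 ± 0.11 (adjusted p = 0.334). Feature 2 minus feature 1 within a mouse was -0.22 to 0.50 in WT and -1.19 to -0.61 in TG mice, with no overlap between the genotypes. Among the 11040 genes with at least 2 features, 1.43% had such a separation between their 2 brightest spots. Feature 3 had a difference of 0.49 ± 0.16 (adjusted p = 0.0639) and passed the threshold without the 3 arrays that stood apart (0.66, adjusted p = 0.0319), as it did without WT female replicate 1 (adjusted p = 0.0489) or TG female replicate 1 (adjusted p = 0.0364) alone. The other 4 features ranged from -0.43 to 0.46, with adjusted p of 0.223 or more, and feature 7 passed the threshold without the 3 arrays (0.76, adjusted p = 0.048, against 0.46 with them). Averaging all 7 features gave 0.16 (adjusted p = 0.542). The position of each probe within its transcript is not given in the sources used here, so the spots could not be assigned to isoforms.

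Eomes, the T-box relative of Tbx21 that conventional NK cells require, was dim and did not pass the test. Feature 1 read 4.18 to 6.32 (median 5.21) in WT lungs, against 3.44 to 5.99 (median 4.30) in TG lungs, with a difference of -0.98 ± 0.34 (adjusted p = 0.0757). The highest TG value belonged to TG female replicate 1, and the next highest TG mouse was at 4.61. Without the 3 arrays that stood apart the difference was -1.10 (adjusted p = 0.0469), and it passed the threshold also without TG female replicate 1 alone (adjusted p = 0.0275) or WT female replicate 4 alone (adjusted p = 0.0315). Feature 2 lay on the other side of 0, at 0.48 ± 0.24 (adjusted p = 0.216), with 3.19 to 4.53 in WT and 3.80 to 5.11 in TG mice. Its values were in or near the 2.66 to 4.09 that Uty read in females, so it says little on direction. The lowest TG values of feature 1 reached that range as well.

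Ets1, which encodes the founding ETS factor and acts upstream of Tbx21 and Id2 in NK progenitors, had 3 features that disagreed. Feature 1 was alike in both genotypes, at 10.1 to 10.7 in WT and 9.49 to 10.5 in TG mice (difference -0.12 ± 0.15, 95% interval -0.44 to 0.20, adjusted p = 0.667). Feature 2 stood at 9.37 to 9.84 in 7 WT mice and at 10.6 in WT male replicate 1, against 9.87 to 10.8 in TG mice. It was higher by 0.77 ± 0.16 (adjusted p = 0.00804). Feature 3 differed by -0.36 ± 0.17 (adjusted p = 0.203). Averaged over its features, Ets1 differed by 0.10 (adjusted p = 0.682).

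Tcf7, which encodes TCF-1, an early factor of innate lymphoid progenitors and naive T cells, was higher by feature 2 alone. That spot read 7.09 to 8.05 (median 7.51) in WT lungs, against 7.93 to 8.69 (median 8.37) in TG lungs, and 5 of 8 TG mice were above all WT mice. The difference was 0.75 ± 0.17 (adjusted p = 0.0129). It was 0.71 without the 3 arrays that stood apart (adjusted p = 0.0567). Feature 1, of similar brightness, differed by 0.29 ± 0.20 (adjusted p = 0.395) with 7.16 to 8.28 in WT and 7.21 to 8.65 in TG mice, and the dim feature 3 by 0.10 ± 0.42 (adjusted p = 0.911).

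Tox and Gata3 did not pass the test. Tox, which encodes an HMG-box factor needed by early NK and innate lymphoid progenitors, had 5 dim features with differences from -0.11 to 0.51 and adjusted p of 0.256 or more. Its brightest feature stood at 4.90 to 5.58 in WT and 5.16 to 6.05 in TG mice (0.27 ± 0.14). The single feature of Gata3 stood at 9.67 to 10.2 (median 9.79) in WT and 8.75 to 10.1 (median 9.68) in TG mice, with a difference of -0.26 ± 0.18 and a 95% interval of -0.64 to 0.11 (adjusted p = 0.369). The 2 lowest Gata3 values were those of TG male replicates 3 and 4, at 8.75 and 9.12. In all, 12 of the 29 features lay below the median signal of the array, among them Tbx21, both features of Eomes and 4 of 5 for Tox.

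None of the 29 features separated the genotypes without overlap. On the whole array every TG mouse was below every WT mouse for 0.669% of features and above for 0.874%. The exact Wilcoxon test called 3 member features lower (Tbx21, Id2 feature 1 and Runx3 feature 1) and 3 higher (Ets1 feature 2, Tcf7 feature 2 and Zeb2 feature 1), beside 5.03% of all features lower and 5.15% higher.

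The early and the late factors were set side by side. Of the 5 early factors (Nfil3, Ets1, Tcf7, Id2 and Tox) 2 were lower and 3 were not called when each was read by its brightest feature, with a median log2 fold change of -0.12. Of the 3 late factors (Tbx21, Eomes and Zeb2) 1 was lower, 1 was higher and 1 did not pass, with a median of -0.98. Over the brightest features of all 24306 genes the median was -0.03, with 6.24% lower and 5.45% higher. Counted over all features, 3 of 15 early features were lower and 2 higher, and 1 of 10 late features was lower and 1 higher. The medians over all features were then -0.03 for the early and 0.04 for the late factors, so the late median changed sign with the choice of features. Of the 10 late features 7 were those of Zeb2, so 0.04 reflects mostly that gene. The late median of -0.98 by brightest features was the value of Eomes, which was not called. Each of these groups held members that moved in opposite directions, and no test was made between them.

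The effect was also taken in each sex. In females 3 member features were lower (Tbx21, Id2 feature 1 and Runx3 feature 1) and 4 were higher (Ets1 feature 2, Tcf7 feature 2, and Zeb2 features 1 and 3), beside 7.64% of all features lower and 6.61% higher. These calls drew on the spread of all 16 mice, and with females fitted alone none of the 3 lower features was called (adjusted p = 0.0604, 0.0751 and 0.0788) and 2 were higher. Of all 43941 features 1809 were lower and 1823 higher in that fit. In males none of the 29 was called, beside 0.196% of all features lower and 0.246% higher. With males fitted alone Tbx21 was called lower (adjusted p = 0.034) and no other member feature was called, beside 58 lower and 44 higher of all features. The difference between the sexes itself was not called by limma for any of the 43941 features, and no member feature reached an unadjusted p under 0.05 for it, beside 12.4% of all features. Nfil3 feature 1 differed by -1.60 ± 0.57 in females and -1.72 ± 0.57 in males. The largest gap among the called members was that of Runx3 feature 1, at -1.64 ± 0.44 in females and -0.62 ± 0.44 in males (adjusted p of the difference = 0.505).

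**Figure D3:**
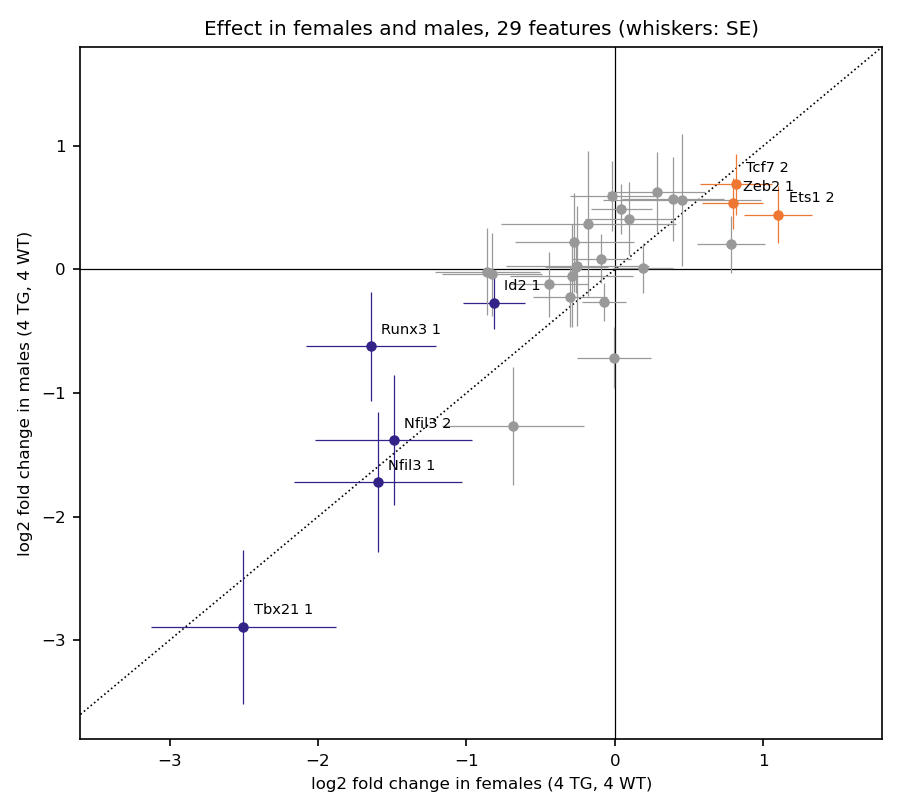
Log2 fold change in females (horizontal) and in males (vertical) of the 29 features, with SE whiskers and a dotted line of equality, 4 TG and 4 WT mice in each sex. The 8 features called over both sexes lie on the same side of 0 in females and in males.

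Nfil3 was next read beside the genes with which it shares regulation in the circadian clock. DBP, HLF and TEF activate D-box promoters that NFIL3 represses, and the nuclear receptors REV-ERB alpha and beta (Nr1d1 and Nr1d2) repress Nfil3 itself. Hlf was higher in TG lungs by 1.43 ± 0.31 (adjusted p = 0.00987) and Tef by 0.90 ± 0.24 (adjusted p = 0.0277). Dbp differed by 1.36 ± 0.51 (adjusted p = 0.102), Nr1d1 by 0.40 ± 0.28 (adjusted p = 0.402) and Nr1d2 by 0.66 ± 0.25 (adjusted p = 0.103) by its brightest feature, while its feature 2 was higher by 0.87 ± 0.23 (adjusted p = 0.0273).

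In each genotype the mice with the highest Nfil3 had the lowest Dbp. The WT mice with the highest Nfil3, female replicate 3 at 9.57 and male replicate 2 at 9.17, had the lowest Dbp among WT mice, at 10.8 and 10.9. TG male replicate 3, the only TG mouse with Nfil3 in the upper part of the WT range, had the lowest Dbp (10.7), Hlf (5.94), Tef (12.6) and Nr1d1 (7.57) of the TG mice, while the other 7 had Dbp of 13.3 to 14.5. Within the 8 WT mice the correlation of Nfil3 feature 1 with Dbp was r = -0.76 (exact permutation p = 0.0218, rho = -0.52, exact p = 0.197), and it dropped to r = -0.32 without the 2 mice farthest from the median Dbp. Within the 8 TG mice it was r = -0.84 (exact permutation p = 0.0129, rho = -0.62, exact p = 0.115), and r = -0.74 without the 2 farthest mice.

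With Nr1d1 the correlation was r = -0.82 in WT (exact permutation p = 0.00985, rho = -0.81, exact p = 0.0218) and r = -0.89 in TG mice (exact permutation p = 0.00141, rho = -0.79, exact p = 0.0279), and without the 2 farthest mice it was -0.76 and -0.61. Of 10 such relations (5 genes in 2 genotypes) 6 had a two-sided exact permutation p for r under 0.05 after Benjamini-Hochberg adjustment, the lowest at 0.0141, and none had for rho, the lowest at 0.0919. The relation was looked for after these values had been seen. The hour at which lungs were collected is not given in the sources used here, and its part in the Nfil3 difference was not tested.

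**Figure D4:**
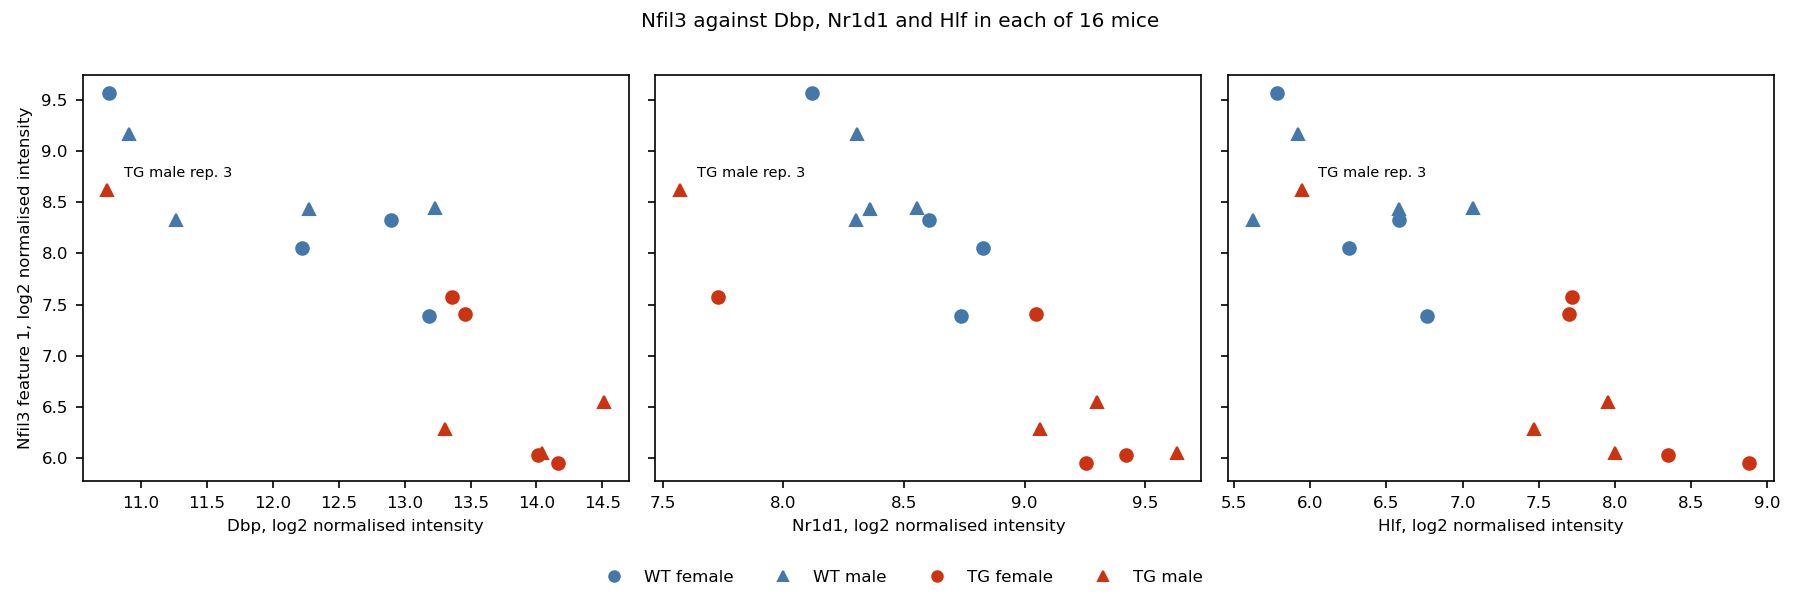
Log2 normalised intensity of Nfil3 feature 1 against that of Dbp, Nr1d1 and Hlf, each point 1 of 16 mice. Nfil3 is lower where Dbp is higher, and the labelled TG male lies among the WT mice with low Dbp.

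When the Dbp level of each mouse was added to the model as a covariate, which was chosen after seeing the data, the Nfil3 differences were -0.80 ± 0.30 (adjusted p = 0.17) and -0.57 ± 0.23 (adjusted p = 0.203). Tbx21 was then the only member feature called, at -2.98 ± 0.54 (adjusted p = 0.0115). Id2 feature 1 differed by -0.66 (adjusted p = 0.062), Runx3 feature 1 by -1.23 (adjusted p = 0.104) and Zeb2 feature 1 by 0.54 (adjusted p = 0.113), close to their values without the covariate. Over the whole array 514 features were lower and 725 higher in that model, compared with 2393 and 2574 without it. Dbp went with genotype, at 10.8 to 13.2 in WT and 13.3 to 14.5 in 7 of 8 TG mice, and was picked because it varied with Nfil3, so a smaller Nfil3 difference in this model follows in part from its construction, and the shares of Dbp and genotype cannot be told apart.

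The genes whose level was most like that of a called member over the 16 mice are given as a description. Only genes whose brightest feature had a mean level above the median of all genes were compared, so dimmer genes could not be named. For Tbx21 these were Treml4 (r = 0.94, and 0.80 after the 4 group means were removed), the Ly49 receptor gene Klra23 (0.92 and 0.77) and the immunoproteasome gene Psmb9 (0.91 and 0.75). For Nfil3 they were Slc10a6 (0.89 and 0.80), Rcan1, a calcineurin regulator (0.89 and 0.82), and Wdr46 (0.89 and 0.83). Zeb2 feature 1 went with Tnks (0.93 and 0.79), Phf20l1 (0.92 and 0.79) and 9030624G23Rik (0.90 and 0.69). Runx3 feature 1 went with Ing5 (0.93 and 0.85), Afg1l (0.92 and 0.86) and Cenpa (0.92 and 0.82), and Id2 feature 1 with Gpsm2 (0.90 and 0.89), Gng8 (0.90 and 0.83) and Mrps16 (0.89 and 0.75). Part of each likeness is shared by construction, since the genes come from the same arrays.

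Other genes of the pathway were counted by their brightest feature. Of 41 further factors of NK and innate lymphoid development 4 were lower and 6 were higher. This is 9.76% lower and 14.6% higher, beside 6.24% and 5.45% of all genes, so the lower share was close to that of all genes. The lower were Elf4 (-0.56 ± 0.10, adjusted p = 0.00297), an ETS factor needed for NK cell numbers and perforin expression, Irf8, Stat4 and Gfi1. Among the higher were Sox4 (0.95 ± 0.20, adjusted p = 0.00711) and the E protein genes Tcf3 (0.44 ± 0.10, adjusted p = 0.0102) and Tcf4 (0.56 ± 0.13, adjusted p = 0.0119), whose products are the targets that ID2 sequesters. Of 34 paralogues and partners of the members none was lower and 5 were higher (14.7%), namely Hlf, Tcf3, Tcf4, Tbx3 (0.55 ± 0.14, adjusted p = 0.0201) and Tef. The ID family members Id1 and Id3 differed by 0.18 (adjusted p = 0.557) and -0.56 (adjusted p = 0.116).

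Of 22 upstream signals 3 were lower (13.6%) and 2 were higher (9.09%), beside 6.24% and 5.45% of all genes. Il2rb, the beta chain shared by the interleukin 15 and interleukin 2 receptors, fell by 2.36 ± 0.19 (adjusted p = 3.22e-06). Flt3, the receptor of early lymphoid progenitors and dendritic cells, fell by 1.28 ± 0.17 (adjusted p = 0.000442), and the common gamma chain Il2rg fell by 0.46 ± 0.14 (adjusted p = 0.0441). Notch1 rose by 1.89 ± 0.45 (adjusted p = 0.0161) by its brighter feature, while its other feature differed by -0.27 (adjusted p = 0.733), and Stat5a rose by 0.57 ± 0.16 (adjusted p = 0.0282). The cytokine Il15 itself differed by -0.30 ± 0.17 (adjusted p = 0.268).

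Most genes listed as needing T-bet, EOMES or ZEB2 were lower. Of 13 measured, 10 were called lower and 1, the integrin Itga2, was higher (0.59 ± 0.16, adjusted p = 0.0287), and the median log2 fold change was -1.70. Of all genes 6.24% were lower and 5.45% higher. Klra8, the activating receptor Ly49H, stood at 8.34 to 9.69 in WT and 2.92 to 4.75 in TG mice and fell by 5.22 ± 0.29 (adjusted p = 5.6e-08). Gzma (granzyme A) fell by 6.09 ± 0.36 (adjusted p = 1.26e-07) and Ncr1 (NKp46) fell by 3.11 ± 0.20 (adjusted p = 2.39e-07). The sizes for Klra8 and Ncr1 are uncertain. Their TG values, 2.28 to 3.66 for Ncr1, lay in or near the 2.66 to 4.09 that Uty read in females. Of these genes 6, Gzma, Gzmb, Prf1, Ncr1, Il2rb and Itga2, stand in the NK marker list as well. In whole lung, a fall through these factors and a fall through fewer NK cells cannot be told apart for this list.

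**Figure D5:**
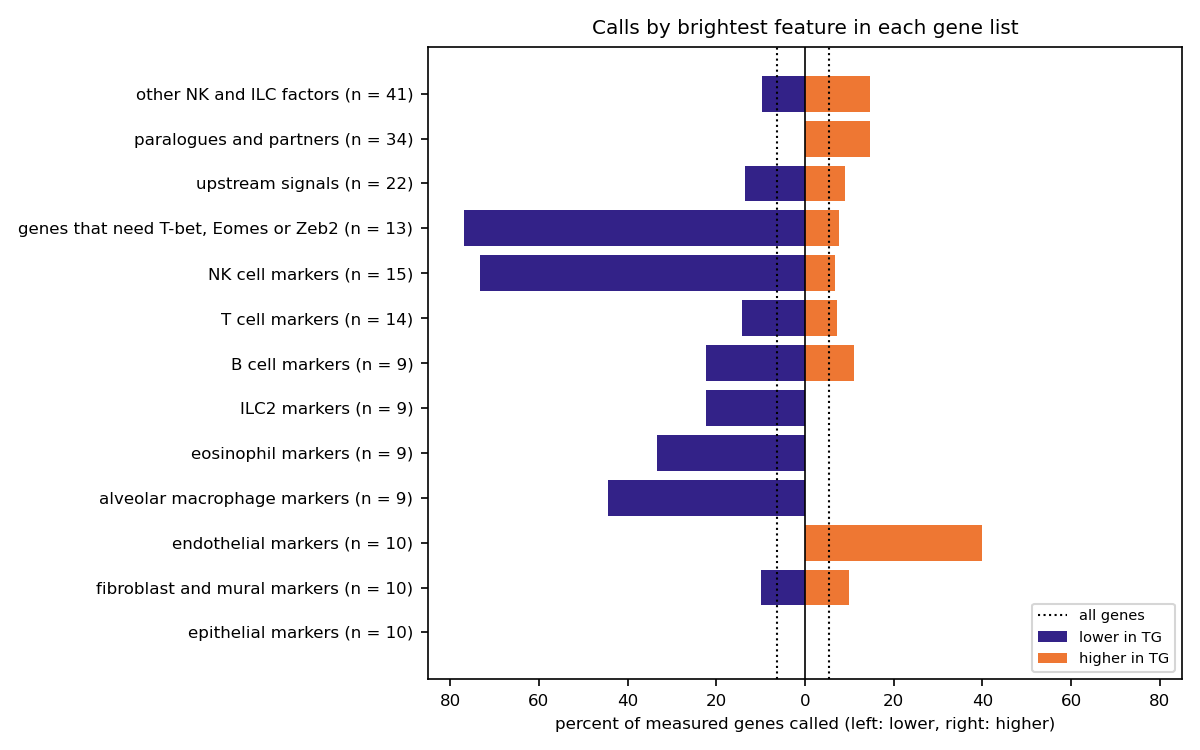
Percent of measured genes in each list that were lower (left) or higher (right) in TG lungs by the brightest feature, with dotted lines at the 6.24% lower and 5.45% higher of all 24306 genes. The NK markers and the genes that need T-bet, Eomes or Zeb2 extend farthest to the left, and the endothelial markers farthest to the right.

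Most markers of NK cells were lower in TG lungs, and in each of the other cell lists most measured markers were not called. The counts stand beside 6.24% lower and 5.45% higher of all genes. Leaving out Tbx21 and Eomes, 10 of 13 NK markers were lower and 1 was higher, and the mean log2 level of the 13 was 7.48 to 8.18 in the WT group and 5.12 to 5.96 in the TG group, without overlap. Klrb1c (NK1.1) fell by 4.16 ± 0.23 (adjusted p = 5.6e-08). That size is uncertain, since its TG values of 2.63 to 4.34 were near those of Uty in females. Gzmb (granzyme B) fell by 3.07 ± 0.25 (adjusted p = 3.22e-06). Of 14 T cell markers 2 were lower, Cd8a (-0.78 ± 0.17, adjusted p = 0.0115) and Cd2 (-0.58 ± 0.13, adjusted p = 0.0131), and 1 was higher, Cd28, and their mean level was 7.53 to 7.94 in WT and 7.27 to 8.12 in TG mice. The part of these cell markers in the differences of Tbx21, Nfil3, Id2 and Runx3 was not tested.

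Among other cells, 4 of 9 alveolar macrophage markers were lower, namely Marco (-2.67 ± 0.25, adjusted p = 2e-05), Siglecf, Fabp5 and Plet1, with a mean level of 10.8 to 11.7 in WT and 10.4 to 11.0 in TG mice. Endothelial markers, from cells that use Zeb2 and Ets1, were higher for 4 of 10, led by Tie1 (0.74 ± 0.13, adjusted p = 0.00354), and their mean was 11.7 to 11.9 in WT and 11.6 to 12.2 in TG mice. Fibroblast and mural markers gave 1 lower (Lum) and 1 higher (Col1a2, 0.76 ± 0.16, adjusted p = 0.00775) of 10. Each is 10%, near the 6.24% lower and 5.45% higher of all genes. None of 10 epithelial markers was called. Among these, Scgb1a1, Sftpc, Sftpb, Ager and Sftpa1 were near the top of the scale, where a difference can be hidden. Of 9 B cell markers 2 were lower (22.2%, Fcer2a and Ms4a1) and 1 higher (11.1%, Cd22). Of 9 ILC2 markers 2 were lower (22.2%, Klrg1 and Il17rb), beside the same shares of all genes. Of 9 eosinophil markers 3 were lower (Ear2, Siglecf and Ear6) and 6 were not called. Siglecf is the gene already counted among the alveolar macrophage markers. Of those not called, Epx, Prg2 and Prg3 had mean levels of 2.59 to 3.13, in or near the range of Uty in females. The list thus gives no clear direction for eosinophils. The part of these other cells in the differences of Zeb2, Ets1 and Gata3 was not tested.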

How the data were processed

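Lung RNA of 16 mice was hybridised to 1-colour Agilent arrays, each array counted as 1 mouse since the labels name no animal, so that p-values measure the spread between these samples. The authors deposited 1 table of log2 intensities, background-corrected and quantile normalised with limma (version not given in the sources used here); quantile normalisation gives every array the same distribution and can hide a shift of all genes. The labels give Cy3 and Trizol extraction where the study's methods give another dye and kit. Scanner files, background flags and depth were not used here, and the number of arrays limits the precision. The table had 0 columns of other samples.

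Symbols came from the platform annotation, updated through RefSeq, and 43941 of 62976 features had 1 symbol (24306 genes). Group means of genotype by sex were fitted by lmFit, contrasts.fit and eBayes of limma 3.58.1 (R 4.3.3), and TG minus WT was called at a Benjamini-Hochberg adjusted p under 0.05 over all 43941 features. The fit was run on simulated data with 200 changed features and independent noise. These had no outlying arrays and no link between features, so they do not check the calls made here. Correlations used scipy 1.17.1 and Python 3.11.15. Alternatives were other filters, scalings, models, sexes apart, and each mouse left out. Replicate numbers do not pair the mice. The members and gene lists were chosen with earlier results of these data known, as were the 3 arrays named as standing apart. All member features are named, with up to 4 genes of each list by smallest adjusted p (or the 2 brightest where none was called), Fosl2, and 3 genes most like each called member; Irf8, Gfi1, Stat4, Il2rg, Tef, Id1, Id3, Il15, Dbp, Nr1d1 and Nr1d2 were named after their values were seen.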

Additional observations from a re-analysis of the deposited data

Results flagged for a closer look

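Member values that stood far from the rest of their genotype were looked for in 58 groups of 8 mice, and 6 were found by Dixon's criterion, where chance flags about 1 in 20 groups. In 4 of the 6 the mouse was TG female replicate 1, an array that stood apart as a whole. Its Id2 feature 1 was 9.83 against 10.4 for the next TG mouse, its Zeb2 feature 2 was 9.34 against 9.69, its Zeb2 feature 5 was 4.76 against 6.06, and its Eomes feature 1 was the highest of the TG mice at 5.99 against 4.61. In WT male replicate 1 Ets1 feature 2 was 10.65 against 9.84 for the next WT mouse. In WT female replicate 4 the dim Tox feature 5 was 3.09 against 2.58. No member feature differed between the sexes by limma's interaction test, and none moved in opposite directions in every mouse of the 2 sexes.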

How the results depend on the processing

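The counts of all features (2393 lower, 2574 higher) became 1348 and 1135 with the mean of all features of a gene, where 24306 in place of 43941 were tested. They were 58 and 44 in males alone, 894 and 1296 without TG female replicates 1 and 4, and 514 and 725 with Dbp as a covariate. They were 3669 lower with array weights and 1471 higher with the brightest feature of each gene, where fewer features were tested. Leaving out each mouse gave 1441 to 3706 lower and 1792 to 3383 higher, the extremes without WT male replicates 3 and 1. Of 29 member features 5 were lower and 3 higher. With 1 value per gene only 10 were tested, of which 3 and 0 were called with the mean of all features, and 4 and 1 with the brightest. Member features called were 1 and 0 in males alone and 1 and 0 with Dbp as a covariate. They were 3 lower with the exact Wilcoxon test and without TG female replicates 1 and 4, and 0 lower in females alone. Without single mice they were 2 to 5 lower and 3 to 4 higher; 2 were lower without TG male replicate 1, and 3 without WT female replicate 1 or 2. With the replicate number as a block, 2374 features were lower and 2471 higher and 4 and 3 member features were called, Id2 feature 1 being lost (adjusted p = 0.0527); of 8 same-number pairs 1 correlated over 0.1 (range -0.05 to 0.13), so the numbers were not taken to pair mice. The sex difference gave 0 features under every setting tried. Of all values of member features under alternatives 809 kept their side of the threshold, 47 lost and 15 gained a call, and no called value changed sign; Tbx21 lost its call in females alone (adjusted p = 0.0604). A change of sign between values that were both short of the threshold was not counted. Without the 3 arrays that stood apart 2 in place of 4 further NK factors were lower and Itga2 was no longer called higher. The cause of these shifts was not tested. Dim features limit Tbx21, Eomes and Tox, for which no background flag was used.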
